A study of Mus musculus with 98 samples.

Results

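The ends left by the RAG recombinase at a chromosomal recombination substrate were compared between mouse pre-B cells lacking the histone variant H2AX and cells lacking 53BP1. The members were the libraries whose labels name RAG breaks at this substrate together with either mutant genotype, 12 of 49 libraries in all. Libraries of H2AX-/- line 8 from a substrate PCR for de novo breaks were not members. In the deposited tables they form 4 cell lines, H2AX-/- lines 5 and 8 and 53BP1-/- lines B and C. All 4 lines also carried the Lig4-/- genotype (loss of DNA ligase IV), and lines A and B with Lig4-/- alone served as the background (6 libraries). The cells were Abelson-transformed and held in G1, and the breaks were made by induced RAG.

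V(D)J recombination cuts antigen receptor genes with RAG, and non-homologous end joining, which ligase IV completes, seals the broken ends. Without ligase IV the ends persist, so that their structure can be read. H2AX is phosphorylated in the chromatin beside a double-strand break, and 53BP1 is recruited to that chromatin. Both are known to limit resection, the nucleolytic loss of DNA from a broken end. In the assay, a ligase for single-stranded DNA joins the strands of an end to each other, bisulphite treatment then allows the hairpin to be amplified, and the read shows where each strand stopped.

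Each end structure is therefore a pair of positions. The loss from the 5'-ending strand says how far that strand was cut back from the break, and the overhang says which strand reaches farther and by how much. A 5' overhang here means that the 3'-ending strand had lost more than the 5'-ending strand. A structure is named below by the loss of its 5'-ending strand and its overhang, in nucleotides (nt). No sequence of the substrate was used here, so structures are given by position.

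Each table pooled the 3 libraries of 1 line without separating them, so the line was the replicate and 2 lines were compared with 2. With so few lines, the smallest p that an exact two-sided permutation test over lines allows is 0.333. Results are therefore given as the value in each line, whether the lines of the genotypes overlap, and whether the smallest gap between genotypes exceeds the largest gap between lines of 1 genotype. The labels do not say how the lines were derived, whether lines of 1 genotype are independent, or whether coding or signal ends were amplified.

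The lines were not handled alike. H2AX-/- line 5 and 53BP1-/- line B were in sequencing run set 4, as were both Lig4-/- only lines, whereas line 8 was in set 2 and line C in set 6. Titles give 48 h for line 8, 53BP1-/- line B and the Lig4-/- only lines, and no time for lines 5 and C. The line C titles and those of Lig4-/- only line B carry a tag, shNT, which the labels leave unexplained. For 1 library of line C the title also names H2AX-/- line 5, and its description says that its reads are mixed with those of another PCR. The parts of run, time and tag in the results were not tested, beyond the values within run set 4 given below.

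The tables held 76325 reads in 588 structures for line 5 and 72923 reads in 700 structures for line 8. For the 53BP1-/- lines they held 337917 reads in 1007 structures (line B) and 127083 reads in 320 structures (line C). Both H2AX-/- tables were thus shallower than both 53BP1-/- tables. Structures with 1 read, listed only for line C among these tables, were left out. A count of 0 below therefore means that a structure was not listed with more than 1 read. The PCR carried no molecular identifiers and its reads are not independent molecules. The exact Clopper-Pearson 95% intervals given for single lines therefore cover counting error only.

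Structures were summed in 29 classes and zones of loss, which overlap each other in part. Of these, 7 were higher in both H2AX-/- lines than in both 53BP1-/- lines (24.1%) and 8 the other way (27.6%), and the classes described below are read beside those shares.

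Ends in both genotypes were far from the break. Resected ends, those cut back by at least 10 nt on the 5'-ending strand, held 96.0% of reads in line 5 and 93.0% in line 8. They held 96.3% in 53BP1-/- line B and 97.5% in line C, against 56.0% and 57.9% in Lig4-/- only lines A and B. The 53BP1-/- mean was higher by 2.41 percentage points, at 96.9% ± 0.882 against 94.5% ± 2.12 (SD, n = 2 lines each). The lines did not overlap, but the smallest gap of 0.291 points lay within the 2.99 points between the H2AX-/- lines. With a threshold of 5 nt the lines overlapped, at 96.8% and 94.8% against 96.8% and 97.7%.

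The genotypes separated more clearly in the share of ends with 100 nt or more lost from the 5'-ending strand. A loss of 100 nt or more was found in 68.6% of reads in line 5 (interval 68.3 to 68.96) and 75.4% in line 8 (75.1 to 75.7). It was found in 84.3% in 53BP1-/- line B (84.2 to 84.4) and 86.5% in line C (86.3 to 86.7), whereas the Lig4-/- only lines were at 17.5% and 15.9%. The means were 72.0% ± 4.80 and 85.4% ± 1.58 (SD, n = 2 lines each), a difference of -13.4 points for H2AX-/- minus 53BP1-/-. The smallest gap between genotypes, 8.86 points, exceeded the 6.78 points between the H2AX-/- lines (exact permutation p = 0.333, the smallest possible). Line 5 against line B, within run set 4, gave -15.6 points. On the 3'-ending strand the same threshold gave 64.2% and 73.96% in lines 5 and 8 against 83.2% and 84.9% in lines B and C. There the lines did not overlap, but the gap between genotypes was below the gap between lines 5 and 8. The same held on the 5'-ending strand with thresholds of 80 and 120 nt.

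**Figure D1:**
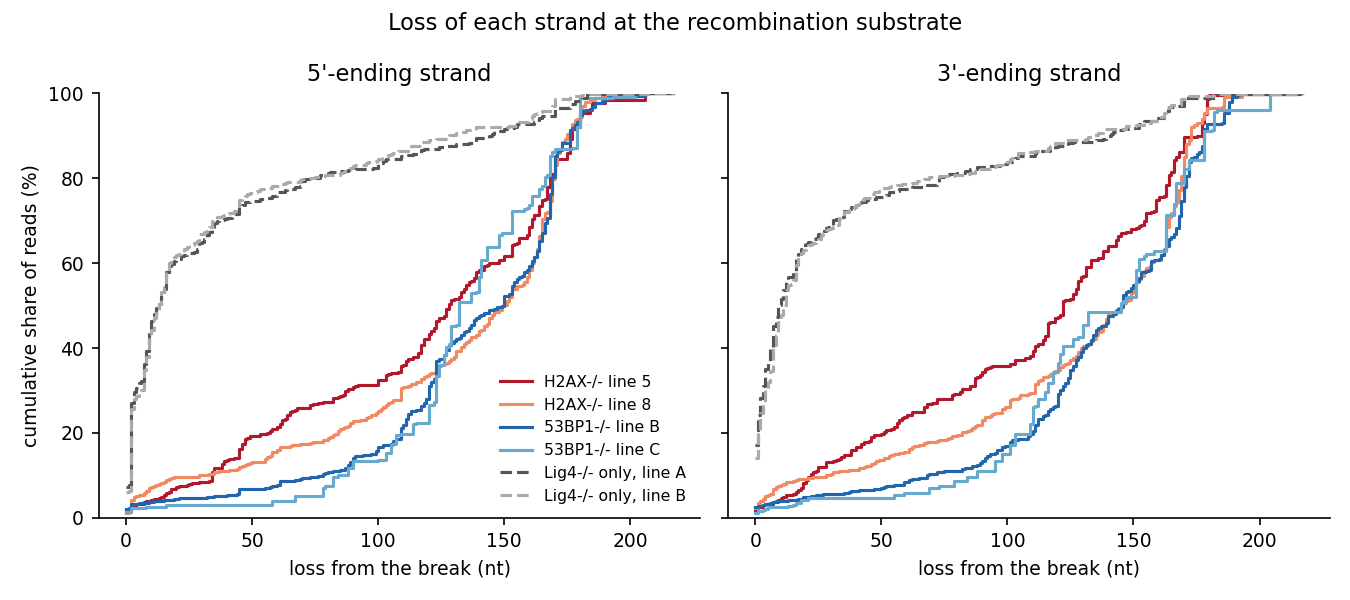
Cumulative share of reads (percent, y axis) against the loss of the 5'-ending strand (left) and of the 3'-ending strand (right) in nt, with 1 curve per line. Up to a loss of 100 nt both H2AX-/- curves lie above both 53BP1-/- curves over most of the range, and beyond about 120 nt on the left they cross. The Lig4-/- only lines (dashed) rise near the break.

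The median loss did not follow that difference. It was 128 and 150 nt from the 5'-ending strand in lines 5 and 8, and 150 and 132 nt in 53BP1-/- lines B and C, so the lines of the genotypes overlapped. From the 3'-ending strand the medians were 122 and 146 nt against 146 and 145 nt. The losses end at 207 nt from the 5'-ending strand in all 4 tables, and whether longer losses existed was not measured.

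The difference lay in the ends of intermediate loss. Losses of 10 to 49 nt from the 5'-ending strand held 15.2% of reads in line 5 and 5.98% in line 8, against 3.15% in 53BP1-/- line B and 0.664% in line C. Both H2AX-/- lines were higher, although line 5 stood 9.21 points above line 8 and the gap between genotypes was 2.83 points. Losses of 1 to 9 nt gave 2.44% and 5.80% against 1.54% and 1.07%, and losses of 50 to 99 nt gave 12.2% and 11.6% against 8.87% and 10.4%. In each of these zones the gap between genotypes was smaller than the largest gap within 1. The Lig4-/- only lines held 36.7% and 36.0% of reads at losses of 1 to 9 nt and 30.8% and 34.4% at 10 to 49 nt.

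Farther in, the order turned. Losses of 100 to under 150 nt held 29.5% and 25.3% of reads in lines 5 and 8 and 34.3% and 53.6% in lines B and C, with line C alone 19.3 points above line B. Losses of 150 nt or more overlapped, at 39.1% and 50.2% against 50.01% and 32.9%. The deep share of the 53BP1-/- lines was thus similar in sum but placed differently, with line C mostly at 100 to under 150 nt and line B mostly at 150 nt or more.

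In the overhangs, the measure that set the genotypes apart was the long 5' overhang. All 5' overhangs together held 32.8% of reads in line 5, 41.6% in line 8, 59.5% in 53BP1-/- line B and 40.1% in line C. In this sum the genotypes overlapped. Those of 5 nt or more held 12.2% and 15.7% in the H2AX-/- lines and 37.5% and 33.9% in the 53BP1-/- lines. The means were 13.95% ± 2.42 and 35.7% ± 2.53 (SD, n = 2 lines each). The difference was -21.8 points, and lines of different genotypes stood at least 18.3 points apart, against at most 3.57 points for lines of the same genotype (exact permutation p = 0.333).

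A threshold of 10 nt, chosen after the values were seen, gave the same order. Such ends held 3.67% of reads in line 5 (interval 3.54 to 3.81) and 7.69% in line 8 (7.49 to 7.88). They held 21.9% in 53BP1-/- line B (21.8 to 22.1) and 26.0% in line C (25.8 to 26.3), and 2.04% and 4.54% in the Lig4-/- only lines. Line 5 lay between the background lines, line 8 above both, and both 53BP1-/- lines far above all of these. The means were 5.68% ± 2.84 and 24.0% ± 2.89 (SD, n = 2 lines each). The smallest gap was 14.3 points between genotypes, against 4.08 points within a genotype (exact permutation p = 0.333).

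The choice of length did not decide the order. Of the 30 minimum lengths from 1 to 30 nt, 29 gave a higher share of 5' overhangs in both 53BP1-/- lines, from 2 nt upward. The same 30 minimum lengths of 3' overhangs gave 0 with the lines apart in either direction. The minimum lengths are nested, so they are not separate results. Among 5' overhangs, the median length was 3 nt in both H2AX-/- lines, 8 nt in line B and 11 nt in line C, against 3 and 4 nt in the Lig4-/- only lines.

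**Figure D2:**
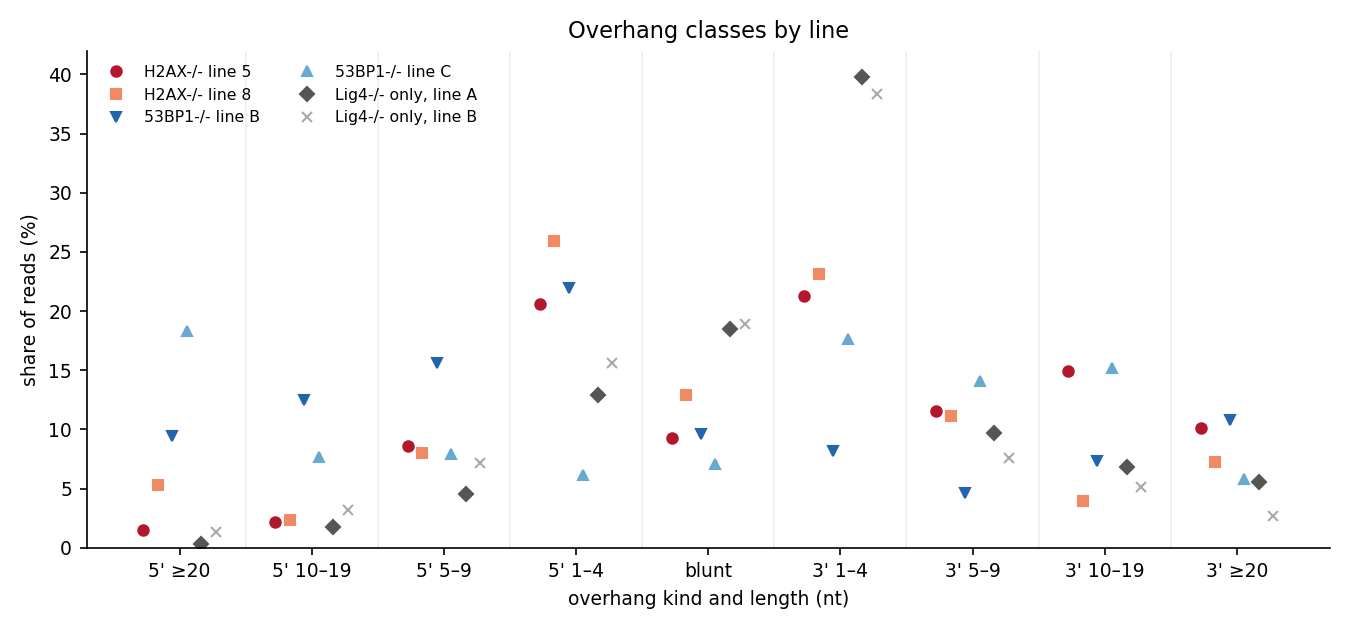
Share of reads (percent, y axis) in 9 classes of end by overhang kind and length in nt (x axis), with 1 point per line. In both classes of 5' overhangs of 10 nt or more the 53BP1-/- points (triangles) lie above the H2AX-/- points, in the 3' overhangs of 1 to 4 nt below them, and in the other 6 classes the genotypes overlap.

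By length class, 5' overhangs of 10 to 19 nt held 2.16% and 2.38% in lines 5 and 8 and 12.5% and 7.70% in lines B and C. Those of 20 nt or more held 1.51% and 5.31% against 9.45% and 18.3%. Both classes were higher in both 53BP1-/- lines, the shorter with a gap of 5.32 points above the 4.79 points within a genotype. For the longer class the gap of 4.14 points was below the 8.87 points between lines B and C. Those of 5 to 9 nt overlapped, at 8.57% and 7.98% against 15.6% and 7.92%, where line C lay at the level of the H2AX-/- lines. Short 5' overhangs of 1 to 4 nt overlapped as well, with 20.6%, 25.9% and 21.9% in lines 5, 8 and B and 6.16% in line C.

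In no line did 1 structure hold most of the long 5' overhangs. There were 48 and 80 such structures in lines 5 and 8, and 204 and 59 in lines B and C. The most abundant held 0.756% and 1.18% of reads in the H2AX-/- lines and 1.45% and 4.24% in the 53BP1-/- lines. Without the most abundant structure of this class, its share was 2.94% and 6.58% against 20.8% and 22.8%. In line C, however, much of the class was gathered at a few lengths. Its share fell from 24.3% at 11 nt or more to 18.7% at 12 nt or more. From 29 to 30 nt or more it fell from 10.7% to 6.43%, and 6.04% remained at 60 nt or more. With each structure counted once in place of its reads, long 5' overhangs made up 8.16% and 11.4% of structures in lines 5 and 8 and 20.3% and 18.4% in lines B and C. By this count the Lig4-/- only lines were at 12.6% and 12.7%, above both H2AX-/- lines. The number of structures listed also depends on the depth of each table.

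**Figure D3:**
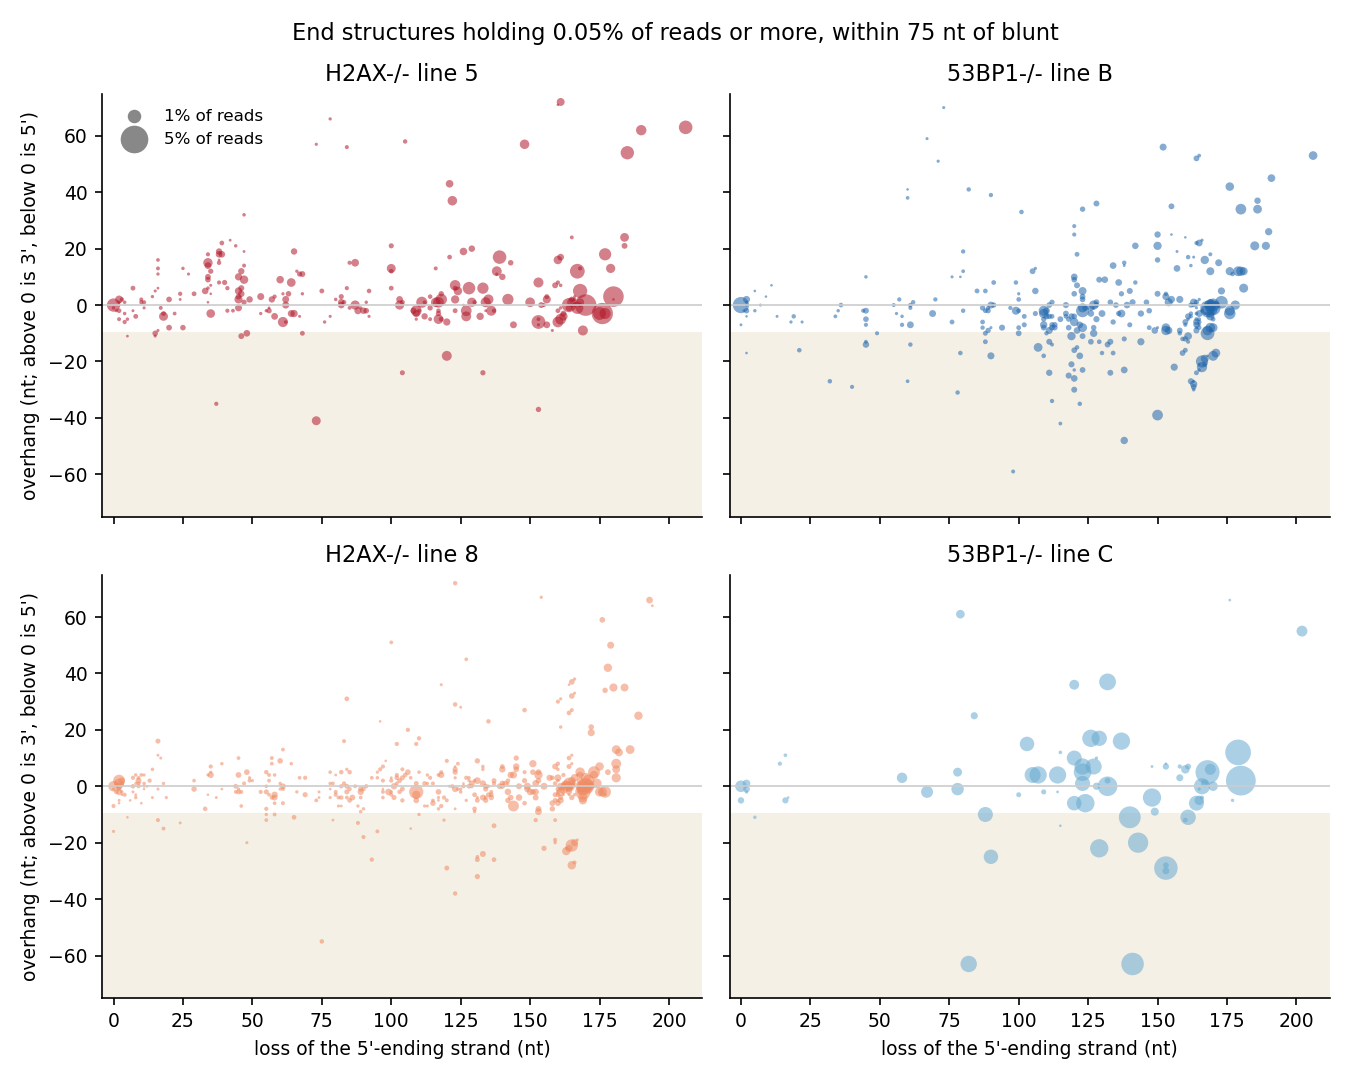
End structures holding 0.05% of reads or more in each line, by the loss of the 5'-ending strand (x axis, nt) and the overhang (y axis, nt, above 0 for 3' and below 0 for 5'), with the area of a point in proportion to its share of reads. The shaded band holds 5' overhangs of 10 nt or more. It is sparsely filled in both H2AX-/- panels and holds a larger share of reads in both 53BP1-/- panels. Line C shows 76 structures and line 8 shows 425. Between 2 and 6 structures per line with overhangs beyond 75 nt are not drawn.

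The median long 5' overhang lay at a loss of 73 nt in line 5, 155 nt in line 8, 138 nt in line B and 141 nt in line C. Since the 53BP1-/- lines held more ends far inside, the share was also taken within zones of equal loss. At a loss of 100 to under 150 nt from the 5'-ending strand, long 5' overhangs held 3.97% and 7.03% of the reads in the zone in lines 5 and 8. They held 26.0% and 25.2% in lines B and C. In the Lig4-/- only lines they held 1.53% and 17.3%, so the background lines differed there by more than the H2AX-/- lines did. At 150 nt or more the values were 0.770% and 8.07% against 20.3% and 21.0%, with 0.163% and 5.00% in the Lig4-/- only lines. In both zones the smallest gap between genotypes, 18.2 and 12.2 points, exceeded the largest gap within 1, 3.05 and 7.30 points.

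Nearer the break the pattern was less even. At 50 to 99 nt long 5' overhangs held 6.79% and 10.5% in lines 5 and 8 against 19.6% in line B and 53.1% in line C. At 10 to 49 nt they held 7.72% and 7.09% against 33.6% in line B and 0% in line C, whose zone held only 844 reads in 14 structures. With a threshold of 5 nt the 10 to 49 nt zone separated the genotypes, at 11.6% and 14.1% against 51.9% and 46.3%. With that threshold, however, Lig4-/- only line B held 37.3% at 100 to under 150 nt, above 53BP1-/- line C at 34.1%. In zones of the 3'-ending strand it also lay above line C, with 24.6% against 16.8% at 50 to 99 nt. At 100 to under 150 nt of that strand the values were 29.8% against 22.1%. Among ends with less than 10 nt lost, long 5' overhangs overlapped, at 4.91% and 3.12% against 2.60% and 4.67%. Zones set by the loss of the 3'-ending strand gave the same order from 50 nt on, including 1.62% and 11.5% against 28.2% and 42.3% at 150 nt or more. In that last zone Lig4-/- only lines A and B were at 0.683% and 18.0%, so line B of the background lay above both H2AX-/- lines there. At 100 to under 150 nt of the 3'-ending strand the gap between genotypes, 5.45 points, was below the 8.94 points within 1. There Lig4-/- only line B held 10.9%, above 53BP1-/- line C at 10.4%.

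**Figure D4:**
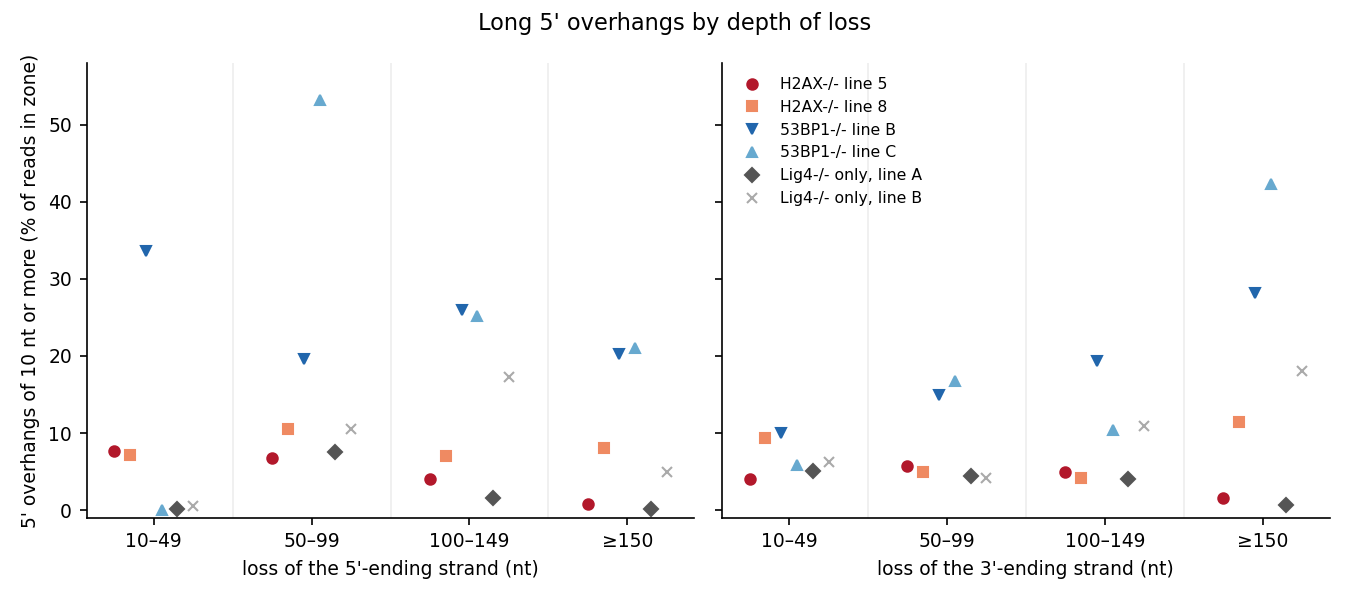
Share of 5' overhangs of 10 nt or more among the reads of each zone of loss (percent, y axis), with zones of the 5'-ending strand on the left and of the 3'-ending strand on the right (x axes, nt) and 1 point per line. Both 53BP1-/- points lie above both H2AX-/- points in the 3 zones from 50 nt on in either panel. Lig4-/- only line B lies above both H2AX-/- lines at 50 to 99 nt on the left, at 150 nt or more on the right, and at 100 to under 150 nt in both panels. At 100 to under 150 nt on the right it also lies above 53BP1-/- line C.

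Short 3' overhangs went the other way. Those of 1 to 4 nt held 21.3% of reads in line 5, 23.1% in line 8, 8.21% in line B and 17.6% in line C. They held 39.8% and 38.4% in the Lig4-/- only lines. Both H2AX-/- lines were higher, with means of 22.2% ± 1.30 and 12.9% ± 6.68 (SD, n = 2 lines each), but the gap of 3.61 points was below the 9.44 points between lines B and C. In line C a single structure, the 2-nt 3' overhang at 180 nt, held 6.80% of all reads. At losses of 10 to 49 nt the class held 19.7% and 32.2% of the zone in lines 5 and 8 against 4.92% and 3.79% in lines B and C. That gap of 14.8 points exceeded the 12.5 points within a genotype. Most short 3' overhangs of the H2AX-/- lines were nevertheless far inside, at median losses of 118 and 141 nt, whereas those of the Lig4-/- only lines lay at 8 and 9 nt.

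Longer 3' overhangs and blunt ends did not separate the genotypes. The 3' overhangs of 10 nt or more held 25.1% and 11.2% of reads in lines 5 and 8 and 18.1% and 21.1% in lines B and C. All 3' overhangs held 57.9% and 45.5% against 30.96% and 52.8%. Blunt ends held 9.31% and 12.9% against 9.59% and 7.11%. When ends with 1 nt of difference were also called blunt, both H2AX-/- lines were higher, with a mean of 23.6% against 15.5%. Line 5 then lay only slightly above line B, and that gap was far below the gaps between lines of 1 genotype. Blunt ends with 150 nt or more lost held 14.5% and 15.3% of that zone in lines 5 and 8 and 8.72% and 8.22% in lines B and C, a gap of 5.81 points against 0.760 within a genotype.

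Ends without loss on either strand, where a hairpin still closed could not be told from an open blunt end, were rare in both genotypes. They held 1.36% of reads in line 5, 0.858% in line 8, 2.02% in line B and 1.04% in line C, with overlapping genotypes. The Lig4-/- only lines were at 5.32% and 3.97%. Among ends with less than 10 nt lost, however, this structure made up 34.0% and 12.3% in the H2AX-/- lines and 54.6% and 42.2% in the 53BP1-/- lines. The gap of 8.12 points was below the 21.8 points between lines 5 and 8, and line C listed 27 structures in this zone.

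Most single structures were listed in 1 line only. Of 1819 structures listed in any of the 4 tables, 1256 were in 1 table, 373 in 2, 147 in 3 and 43 in all 4. Of these, 158 had a higher share in both H2AX-/- lines (8.69%) and 56 in both 53BP1-/- lines (3.08%). With 0 reads counted as the limit of 3 reads in each table, a setting chosen after seeing the data, 158 and 18 of these were left. Both H2AX-/- tables are the shallower ones, so in their direction none could be lost. The smallest share listed in either already exceeded the limits of lines B and C, 0.000888% and 0.00236%. The 158 left are therefore not read as a result. The share of reads that a pair of tables had in common, as the sum over structures of the smaller share, was 15.9% for lines 5 and 8 and 6.38% for lines B and C. It was 21.0% for H2AX-/- line 8 with 53BP1-/- line B, the highest of these pairs and a pair from different genotypes and run sets, and 10.5% for line 5 with line B. The pairs with line C gave 5.78% (line 5) and 4.92% (line 8). The Lig4-/- only lines shared 56.5%. By the position of the 5'-ending strand alone, lines 8 and B again had the most in common, at 60.7%, followed by lines 5 and B with 54.9%, against 51.1% for lines 5 and 8 and 38.9% for lines B and C.

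The tables also differed in evenness. The 10 most abundant structures held 20.7% of reads in line 5, 13.2% in line 8, 14.2% in line B and 39.4% in line C. The number of structures that together held 50% of reads was 44, 88, 76 and 15 in the same order. Line C thus stood apart, and its larger values for single structures are to be read beside that.

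The leading structures of the H2AX-/- lines were blunt ends or short overhangs at losses of 109 to 180 nt. The blunt end at 170 nt led both, with 3.56% in line 5 (interval 3.43 to 3.70) and 2.12% in line 8 (2.01 to 2.22). It held 1.33% in line B and 0.687% in line C. Both H2AX-/- lines were higher, but in Lig4-/- only line A it held 1.91% and in line B 0.00702%. The 3-nt 5' overhang at 176 nt and the 3-nt 3' overhang at 180 nt followed in line 5, with 3.47% and 3.25%. Line 8 held 0.0370% of the first and 0 reads of the second, a count that allows up to 0.00411%.

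In line 8 the 2-nt 5' overhang at 169 nt came next with 1.81%, and line 5 had 0 reads of it. The 2-nt 5' overhang at 109 nt held 0.907% in line 5, 1.55% in line 8, 0.768% in line B and 0.201% in line C. The blunt end at 164 nt held 1.55% and 0.550% against 0.0761% and 0, and the 63-nt 3' overhang at 206 nt held 1.42% and 0.00823% against 0 in both 53BP1-/- lines. These last 3, with the blunt end at 170 nt, were the structures higher in both H2AX-/- lines with the greatest difference of means.

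In line B of the 53BP1-/- genotype the end without loss led, followed by 1-nt 5' overhangs at 170 and 168 nt with 1.68% and 1.60%. Line C held 0.00236% and 0 of these, and line 8 held 0.474% and 0.256%. In line C the 2-nt 3' overhang at 180 nt was followed by a 12-nt 3' overhang at 179 nt with 5.06% and a 5-nt 3' overhang at 168 nt with 4.44%. The first of these held 0.740% in line B, 0.0105% in line 5 and 0 in line 8. The second held 1.56% in line 5, 0.691% in line 8 and 0.000592% in line B, so line C was closer to both H2AX-/- lines than to line B.

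The 4 structures that the naming rule took as higher in both 53BP1-/- lines were all highest in line C, and for 2 of them line B was not shown to be higher. These were the 29-nt 5' overhang at 153 nt, with 4.24% in line C and 7 reads (0.00207%) in line B, and the 6-nt 5' overhang at 124 nt, with 2.60% and 3 reads (0.000888%). They were not listed in either H2AX-/- line, which allows up to 0.00393% in line 5 and 0.00411% in line 8, above the values of line B. Beside the 12-nt 3' overhang at 179 nt the other was a 5-nt 3' overhang at 123 nt. It held 2.38% in line C, 0.481% in line B, 0.213% in line 8 and 0.00262% in line 5.

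**Figure D5:**
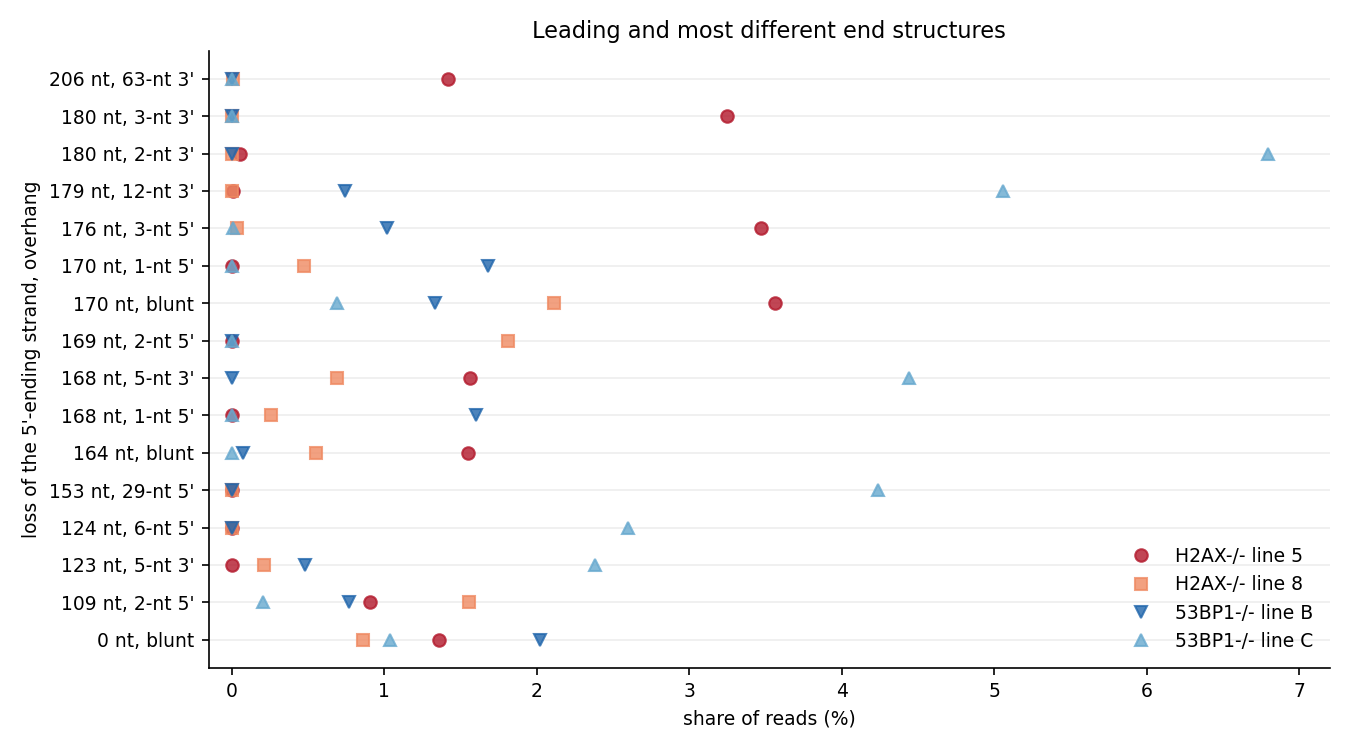
Share of reads (percent, x axis) of the 16 structures named by rule, by the loss of the 5'-ending strand and the overhang (y axis), with 1 point per line. Most structures are high in 1 line only. The blunt end at 170 nt reaches 3.56% in line 5 and 2.12% in line 8, above 1.33% in line B and 0.687% in line C.

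Positions of 1 strand were shared more widely than whole structures. Of 200 positions of the 5'-ending strand, 50 had a higher share in both H2AX-/- lines (25.0%) and 15 in both 53BP1-/- lines (7.5%). For 202 positions of the 3'-ending strand the counts were 51 (25.2%) and 19 (9.41%). The positions named next were chosen after their values were seen, as the largest differences of means.

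A 5'-ending strand stopping at 123 nt was found in 1.76% and 1.37% of reads in lines 5 and 8, and in 4.28% and 6.19% in lines B and C. Positions 120 and 168 nt had the same order, with 1.16% and 0.483% against 2.86% and 4.12%, and 2.29% and 2.57% against 5.66% and 4.47%. At 123 nt line B held 19 structures, and 71.7% of their reads were 5' overhangs. Line C held 8 structures there, and 0.280% of their reads were 5' overhangs. At 168 nt the 5' overhangs made up 91.9% of the reads in line B and 0.0880% in line C. At 120 nt both lines were mixed, with 61.7% in line B and 39.95% in line C.

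For the H2AX-/- lines the largest such positions were 177 nt, with 2.15% and 1.36% against 0.579% and 0.102%, and 175 nt, with 1.26% and 1.21% against 0.00414% and 0.00315%. On the 3'-ending strand, 178 nt was higher in the 53BP1-/- lines, at 3.97% and 6.80% against 2.09% and 1.45%. In line C 1 structure, the 2-nt 3' overhang at 180 nt, made up nearly all of it. Higher in the H2AX-/- lines on that strand were 179 nt, at 3.50% and 1.18% against 1.02% and 0.00472%, and 164 nt, at 2.36% and 2.37% against 1.68% and 0.0212%. At 179 nt line B lay closer to line 8 than line 5 did. Position 138 nt came next, at 1.54% and 1.23% against 0.0687% and 0.0165%.

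Models of the read counts disagreed on single structures. With edgeR's quasi-likelihood test and Benjamini-Hochberg adjustment, 0 of 245 tested structures passed an adjusted p of 0.05 (0.0%), and 24 had an unadjusted p below 0.05, of which 23 were higher in H2AX-/- lines. None of these 23 was listed in either 53BP1-/- line, and the 1 other was listed in neither H2AX-/- line. They passed the filter on low counts through 1 genotype alone, so the split is not read as a direction. The smallest adjusted p of edgeR's test was 0.301. DESeq2 on the same structures called 57 (23.3%), of which 47 were higher in H2AX-/- lines and 10 in 53BP1-/- lines. That split rests on the same filter and is not read as a direction either. The square root of edgeR's common dispersion, the coefficient of variation between lines of 1 genotype, was 2.44.

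Summing structures over 10 nt of loss and by kind of overhang gave 55 bins, of which edgeR called 0 (0.0%), with 4 at an unadjusted p below 0.05 and a smallest adjusted p of 0.686. DESeq2 called 2 (3.64%). Of these 4, 3 were higher in H2AX-/- lines and 1 in 53BP1-/- lines. The lowest unadjusted p was that of blunt ends at losses of 80 to 89 nt. They held 0.997% and 0.476% of reads in lines 5 and 8 against 0.000592% and 0 in lines B and C. Blunt ends at 100 to 109 nt held 0.639% and 0.304% against 0.00326% and 0.00157%. The 1 bin higher in 53BP1-/- lines was that of 5' overhangs at losses of 120 to 129 nt. It held 3.00% and 1.23% in lines 5 and 8 and 8.54% and 6.87% in lines B and C (edgeR's quasi-likelihood test, adjusted p = 0.686). The bin of 3' overhangs at losses of 30 to 39 nt went the other way, with 4.12% and 0.771% against 0.0189% and 0 (edgeR's quasi-likelihood test, adjusted p = 0.686). All 4 bins were chosen after their values were seen.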

How the data were processed

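The members, classes and lists were chosen with earlier results of these data known. Each deposited table gives, per end structure, a position, an overhang and a read count that the authors did not normalise. Each table pools 3 libraries, per the labels. For the aligner, read filters and build: not given in the sources used here. Loss is the position minus 2, the lowest position of either strand, so another origin would shift all losses alike. Positive overhangs were read as 3', since the main structure of the KpnI control table has the value 4, as that enzyme leaves. Line 5 was deposited in 2 identical copies, of which 1 was used. Structures with 1 read were dropped, 0.162% of the reads of 53BP1-/- line C.

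Shares of reads, exact Clopper-Pearson 95% intervals and exact permutation tests came from scipy 1.17.1 and numpy 2.4.6 under Python 3.11.15, with tables read by pandas 2.3.3 and figures drawn by matplotlib 3.10.9. The count model was edgeR 4.0.16 (quasi-likelihood, TMM, filterByExpr for structures and 10 reads in all for bins) in R 4.3.3, with DESeq2 1.42.0 as an alternative. It was also run on simulated data, and the outcome is not reported here. The coefficient of variation between lines of 1 genotype was 2.44 for structures and 1.31 for bins. With that spread and 2 lines per genotype, the lack of structures and bins called by edgeR does not show a lack of difference. A count of 0 allows a share of up to 3 reads of the table. Named structures are the 3 leading ones of each line and, for each direction, the 4 with the greatest difference of means among those whose lines do not overlap. Alternatives changed the thresholds, the minimum reads, the strand, the structures left out, the lines left out and the run set.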

Additional observations from a re-analysis of the deposited data

How the results depend on the processing

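Values are H2AX-/- minus 53BP1-/-, in percentage points unless stated. Of 135 alternatives, 115 kept the direction and the side of the threshold or moved by less than the spread between lines, 18 moved by more, and 2 passed where the reported fit had not, the DESeq2 counts of 57 structures and 2 bins. The share of 5' overhangs of 5 or 10 nt and more kept its direction in 24 of 24 alternatives. Those that left out a line or kept run set 4 only could not reverse it, since the lines do not overlap. The 24 are therefore not separate checks. Counting structures in place of reads gave -11.5 for 5 nt and -9.55 for 10 nt, -20.98 for losses of 100 nt or more and -32.5 nt for the median loss. Leaving out the 10 most abundant structures per table, long 5' overhangs gave -16.6 (5 nt) and -12.2 (10 nt), and a threshold of 10 nt in place of 5 gave -18.3. Ends without loss gave 0.588 without the most abundant structure and 0.498 without the 10 most abundant, which include the end without loss itself in some tables. Within run set 4, line 5 against line B, the resected share gave -0.291, all 5' overhangs -26.7, all 3' overhangs 26.9, blunt ends -0.280, 5' overhangs of 5 nt or more -25.3, 3' overhangs of 10 nt or more 6.92 and the median loss -22 nt. A resected threshold of 5 nt gave -1.42, with overlapping lines, a threshold of 20 nt gave -4.46, and counting 1 nt of difference as blunt gave 8.11. Results whose lines overlap have no settled direction. These are the median loss, ends without loss, blunt ends, all 5' overhangs, all 3' overhangs and 3' overhangs of 10 nt or more. As reported, 3' overhangs of 10 nt or more gave -1.47 and ends without loss -0.421, so both changed sign in alternatives given above. For such results a change of sign was counted by its size only. No paired analysis was possible because lines of the genotypes share no replicate numbers. The counting intervals do not cover PCR sampling, so how far depth limits the shares is not known from them.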
